A study of Mus musculus with 4 samples.

Results

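The chemokines that call monocytes into tissue, and their receptors, were followed across the cell classes of mouse lung as 9 genes chosen by symbol out of 32285 in the tables. They are the CCR2 ligands Ccl2, Ccl7 and Ccl12 with Ccr2 itself, the ligands Ccl3 and Ccl4 with Ccr1, and Cx3cl1 with its receptor Cx3cr1, so 6 ligands and 3 receptors. All 9 symbols were found once in each of the 4 libraries. The lungs came from male wild-type C57BL/6 mice aged 6-7 weeks, and single cells were sequenced in 4 libraries, 1 per group. PBS is intratracheal phosphate-buffered saline, and LPS is 200 µg of intratracheal lipopolysaccharide, a bacterial cell wall component that inflames the lung. PBS+RT and LPS+RT received the same instillations and 1 Gy of X-rays to the thorax on the next day, and all lungs were taken at 48 hours. All groups shared the instillation route, the tissue digestion and a Ficoll step that separates mononuclear cells, and the labels do not give the number of mice in a library.

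Chemokines are small secreted proteins that guide leukocytes through G protein-coupled receptors. CCR2 on classical monocytes senses CCL2, CCL7 and, in mice, CCL12, and is needed for these cells to leave the bone marrow and enter inflamed tissue. CCL3 and CCL4 are inflammatory chemokines of macrophages, neutrophils and lymphocytes. CCL3 binds CCR1. CX3CL1 is a membrane-bound chemokine that can be shed, and its receptor CX3CR1 marks nonclassical monocytes and many tissue macrophages.

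After filtering, the libraries (always in the order PBS, PBS+RT, LPS, LPS+RT where 4 values follow each other) kept 8879, 6226, 9004 and 9635 cells. The median cell had 4262, 8559.5, 5576 and 4264 UMIs. A UMI marks 1 captured RNA molecule. A level is given in CPM, the summed UMIs of a gene in a class scaled to counts per 1e6 UMIs of that class and library. The 24 classes were named from markers, so each name stands for cells like that type (neutrophil for neutrophil-like cells, and so on), and 11.3 to 19.8% of the cells of a library stayed unnamed. Since each group is 1 library, differences could not be set against replicates, and none was tested. The intervals are exact 95% Poisson intervals for levels, conditional binomial intervals for ratios and Clopper-Pearson intervals for shares, and all cover counting error only. Comparisons were counted over classes that reached 100 cells in both members of a pair, levels were ranked in classes with at least 50 cells, and values from classes with 25 to 99 cells were added after the data had been seen and are named as small classes. Classes below 25 cells in a library enter no comparison there. Classical monocytes (98, 69, 111 and 98 cells in the 4 libraries), nonclassical monocytes (125, 75, 124 and 91) and interstitial macrophages (48, 29, 205 and 219) are small in some libraries, and neutrophils are small in PBS (76 cells, against 115, 3559 and 899).

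The genes lie in clusters of the genome. In GENCODE M21 on GRCm38, Ccl2 (ENSMUSG00000035385) is at chr11:82035571-82037453, Ccl7 (ENSMUSG00000035373) at chr11:82045712-82047525 and Ccl12 (ENSMUSG00000035352) at chr11:82101845-82103400, all on the plus strand. Ccl3 (ENSMUSG00000000982) is at chr11:83647844-83649355 on the minus strand and Ccl4 (ENSMUSG00000018930) next to it at chr11:83662584-83664683 on the plus strand. Ccr1 (ENSMUSG00000025804, chr9:123962124-123968692, minus), Ccr2 (ENSMUSG00000049103, chr9:124101950-124113557, plus) and Cx3cr1 (ENSMUSG00000052336, chr9:119901616-120069879, minus) share chromosome 9. Cx3cl1 (ENSMUSG00000031778) is at chr8:94772009-94782427 on the plus strand. The annotated span of Cx3cr1 is 168264 bases and overlaps 9 other genes, of which Gorasp1, Csrnp1 and Xirp1 lie on the same strand, so reads of these genes could be assigned to it. Gm17268, on the opposite strand, overlaps Ccl2.

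The promoters of 4 members are shown because their genes had unlike patterns over the classes with at least 25 cells. Among these, Ccl3 was highest in neutrophils of LPS and LPS+RT and Ccr1 in neutrophils of every library. Ccl12 was highest in interstitial macrophages and Cx3cl1 in aerocytes. Each sequence is from RefSeq on GRCm38.p6, runs from 250 bases before to 50 after the annotated start, and is written 5′ to 3′ on the gene's strand. Of the 9 members, 6 have an entry. The positions are chr11:83649329-83649628 (minus) for Ccl3, chr9:123968643-123968942 (minus) for Ccr1, chr11:82101595-82101894 (plus) for Ccl12 and chr8:94771930-94772229 (plus) for Cx3cl1. Capitals mark matches to the motifs searched.
Ccl3: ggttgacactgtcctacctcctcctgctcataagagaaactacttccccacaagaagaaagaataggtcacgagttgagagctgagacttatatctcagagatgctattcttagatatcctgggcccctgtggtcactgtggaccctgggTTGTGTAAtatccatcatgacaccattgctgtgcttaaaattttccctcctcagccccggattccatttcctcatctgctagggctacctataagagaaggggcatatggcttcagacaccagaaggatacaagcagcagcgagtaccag
Ccr1: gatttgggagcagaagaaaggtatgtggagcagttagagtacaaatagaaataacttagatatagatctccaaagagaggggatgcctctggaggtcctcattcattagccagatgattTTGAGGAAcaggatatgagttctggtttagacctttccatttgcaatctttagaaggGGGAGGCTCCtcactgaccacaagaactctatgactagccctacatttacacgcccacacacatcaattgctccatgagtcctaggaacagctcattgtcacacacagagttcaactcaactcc
Ccl12: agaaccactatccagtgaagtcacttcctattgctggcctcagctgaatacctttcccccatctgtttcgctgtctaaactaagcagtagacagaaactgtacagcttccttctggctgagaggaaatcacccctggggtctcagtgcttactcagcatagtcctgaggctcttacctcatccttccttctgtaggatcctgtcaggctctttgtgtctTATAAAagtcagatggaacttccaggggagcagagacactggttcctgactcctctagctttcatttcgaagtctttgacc
Cx3cl1: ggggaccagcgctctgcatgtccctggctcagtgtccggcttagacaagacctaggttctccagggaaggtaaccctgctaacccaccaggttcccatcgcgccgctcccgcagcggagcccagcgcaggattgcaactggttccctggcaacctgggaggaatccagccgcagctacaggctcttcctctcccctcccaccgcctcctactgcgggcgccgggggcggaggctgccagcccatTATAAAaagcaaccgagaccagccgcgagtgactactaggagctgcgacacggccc
The motifs were the 10-base NF-kappaB consensus, AP-1 as TGANTCA, C/EBP as TTNNGNAA and the TATA box as TATAAA, searched on both strands, and the last was added after the matches of the first 3 had been seen. Ccl3 held a C/EBP match whose first base was at -100 from the start, and Ccr1 held an NF-kappaB match at -74 and a C/EBP match at -131. Ccl12 held TATAAA at -31 and Cx3cl1 held it at -6. Of 32851 promoters of this length, 8.46% held the NF-kappaB consensus, 7.81% the AP-1 motif, 40.7% the C/EBP motif and 13.6% TATAAA. The matches are a description of these letters only.

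Ccl2 encodes the chief CCR2 ligand, and its highest level in the lungs without LPS was in interstitial macrophages, the phagocytes of the lung's connective tissue. There it stood at 1293 CPM (1214 to 1376), 1432, 371 and 229 CPM. It was thus lower in both LPS libraries, 0.287-fold (0.266 to 0.310) in LPS against PBS and 0.160-fold (0.145 to 0.178) in LPS+RT against PBS+RT, where the PBS and PBS+RT classes are small. Of all genes measured in this class, 13% and 14.6% were at least 2-fold lower in these comparisons. Of these cells, 77.1%, 62.1%, 66.3% and 42.5% held a Ccl2 UMI in the same order of libraries, and 62.5%, 48.3%, 31.7% and 16.4% did once each cell was thinned to 2000 UMIs. B cells, which should lack the gene, held one in 0.928%, 1.05%, 2.55% and 0.881% of cells at medians of 5500, 7871.5, 4999 and 5137.5 UMIs, against 11980, 13691, 23916 and 18735 in interstitial macrophages.

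The cells of this single cluster were not alike in the libraries. Cd163, a scavenger receptor of resident interstitial macrophages, stood in it at 305, 221, 3.79 and 23.6 CPM, and Folr2, a folate receptor of the same cells, at 399, 139, 24.4 and 49.8 CPM, in the order PBS, PBS+RT, LPS, LPS+RT. C1qa, a complement subunit, stood at 4182, 3250, 1979 and 2358 CPM. All 8 markers of the class were present in every library, with summed levels of 27431, 19083, 12189 and 24194 CPM. The 6 classical monocyte markers summed to 1093 to 1284 CPM in all 4, but did not move together. Ly6c2 and Vcan were at 0 in PBS and PBS+RT, at 40.5 and 26.5 CPM in LPS and at 48.7 and 10.9 in LPS+RT. F13a1 went the other way, at 991, 815, 308 and 299 CPM. Fn1 stood at 60.7, 459, 721 and 770 CPM, Ms4a4c at 6.45, 7.07, 46.6 and 39.9 and Plac8 at 34.8, 2.36, 83.9 and 26.9. The part of this difference in cell state in the Ccl2 values was not tested.

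A second macrophage class with Ccl2 was present in the LPS libraries. Inflammatory macrophages, named from Nos2, Arg1 and related genes, numbered 549 cells in LPS and 109 in LPS+RT, and 0 and 1 in PBS and PBS+RT. Ccl2 stood in them at 272 CPM in LPS and 362 in LPS+RT, a ratio within 2-fold. They held 42.8% (41.8 to 43.9) of all Ccl2 UMIs of the LPS library, while interstitial macrophages held 46.8% in PBS and 21.5% in LPS. Neutrophils held 19.6% of the LPS total through their number, at 96.5 CPM against 6.86 in the small PBS class (3 UMIs) and 10.7 in PBS+RT. In LPS+RT the neutrophil level was 87.8 CPM, 8.22-fold (4.41 to 17.3) that of PBS+RT.

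Alveolar fibroblasts, which lie in the alveolar wall, held 16.0%, 16.7%, 5.5% and 19.6% of the Ccl2 UMIs, beside 11.6%, 17.4%, 1.06% and 6.53% in alveolar macrophages. Alveolar fibroblasts held Ccl2 at 85.2 CPM in PBS and 51.7 in PBS+RT, and at 201 in LPS and 213 in LPS+RT. Both LPS libraries were above both PBS libraries, by 2.36-fold (2.05 to 2.72) without and 4.12-fold (3.58 to 4.75) with irradiation. These levels rest on few cells: 25 of 333, 24 of 282, 24 of 150 and 46 of 269 alveolar fibroblasts held a Ccl2 UMI. Adventitial fibroblasts stood at 20.4, 0, 363 and 15.1 CPM, but 1 cell held 52% of the UMIs behind the LPS value, which was 185 CPM without it, and 1 cell held 86% of those in PBS, which was 2.86 CPM without it. In PBS+RT a floor of 3 UMIs in the class stands at 1.41 CPM. Classical monocytes themselves held Ccl2 at 87.5, 81.8, 160 and 153 CPM, and alveolar macrophages stayed at 11.7 to 17.1 CPM in all 4 libraries. Conventional dendritic cells went the other way, at 124 and 147 CPM in PBS and PBS+RT and 32.1 and 49.4 in LPS and LPS+RT. Among classes with at least 50 cells they ranked first for Ccl2 in PBS and PBS+RT, since the interstitial macrophages fell below that number there. With at least 1000 UMIs required per barcode, interstitial macrophages ranked first in PBS (1005 CPM) and classical monocytes in PBS+RT (94.9 CPM).

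Ccl7, a CCR2 ligand encoded beside Ccl2, was held mostly by interstitial macrophages and fibroblasts. Interstitial macrophages held it at 332, 627, 156 and 120 CPM. The level in LPS was 0.470-fold (0.408 to 0.543) that in PBS. Adventitial fibroblasts stood at 24.9, 15.9, 260 and 98.7 CPM and alveolar fibroblasts at 39.1, 33.4, 84.5 and 119 CPM. In alveolar fibroblasts both LPS libraries were again above both PBS libraries, by 2.16-fold (1.75 to 2.67) and 3.56-fold (2.98 to 4.27). Few of these cells held a Ccl7 UMI: 20 of 282 in PBS+RT, 24 of 150 in LPS and 31 of 269 in LPS+RT. In PBS it was found in 4 of the 25 cells with Ccl2 and 8 of the 308 without Ccl2. Adventitial fibroblasts, with 38 cells in LPS, were the class with the highest Ccl7 level there among those with at least 25 cells, and interstitial macrophages the highest among those with at least 50. In PBS and PBS+RT the interstitial macrophages were highest at the lower limit of cells and alveolar fibroblasts at the higher. Inflammatory macrophages stood at 32.9 CPM in LPS and 52.0 in LPS+RT. Neutrophils of LPS held 10.4% of the Ccl7 UMIs of that library at 11.4 CPM, and classical monocytes stayed at 0 to 9.08 CPM. Dendritic cells of PBS stood at 26.4 CPM, where 1 cell held 95.6% of the UMIs. Single cells often held both genes: of the 80 interstitial macrophages of LPS with a Ccl7 UMI, 74 (92.5%) also had Ccl2, against 62 of 125 (49.6%) without Ccl7, at medians of 27244 and 22257 UMIs. In inflammatory macrophages of LPS the counts were 49 of 57 (86.0%) against 171 of 492 (34.8%), at medians of 34772 and 23748 UMIs.

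Ccl12, the mouse CCR2 ligand whose promoter is printed above, was counted mostly in interstitial macrophages. Interstitial macrophages held 91.0%, 86.8%, 55.4% and 68.6% of its UMIs. Their level was 301, 155, 99.5 and 27.4 CPM. The PBS+RT value rests on 29 cells, 1 of which held 53% of the UMIs, and was 77.2 CPM without it. LPS+RT was below LPS, at 0.275-fold (0.223 to 0.337), and the same held in inflammatory macrophages, at 1.20 against 25.4 CPM or 0.0473-fold (0.00971 to 0.139), with 3 and 363 UMIs, of which 1 cell held 32% in LPS. Ccl2 in the same pair of classes was at 229 against 371 CPM and at 362 against 272 CPM, so the CCR2 ligands did not move as one in these cells. No other class reached 10 CPM of Ccl12 with 10 UMIs, and among classes with at least 50 cells the highest level in PBS was 1.57 CPM.

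**Figure D1:**
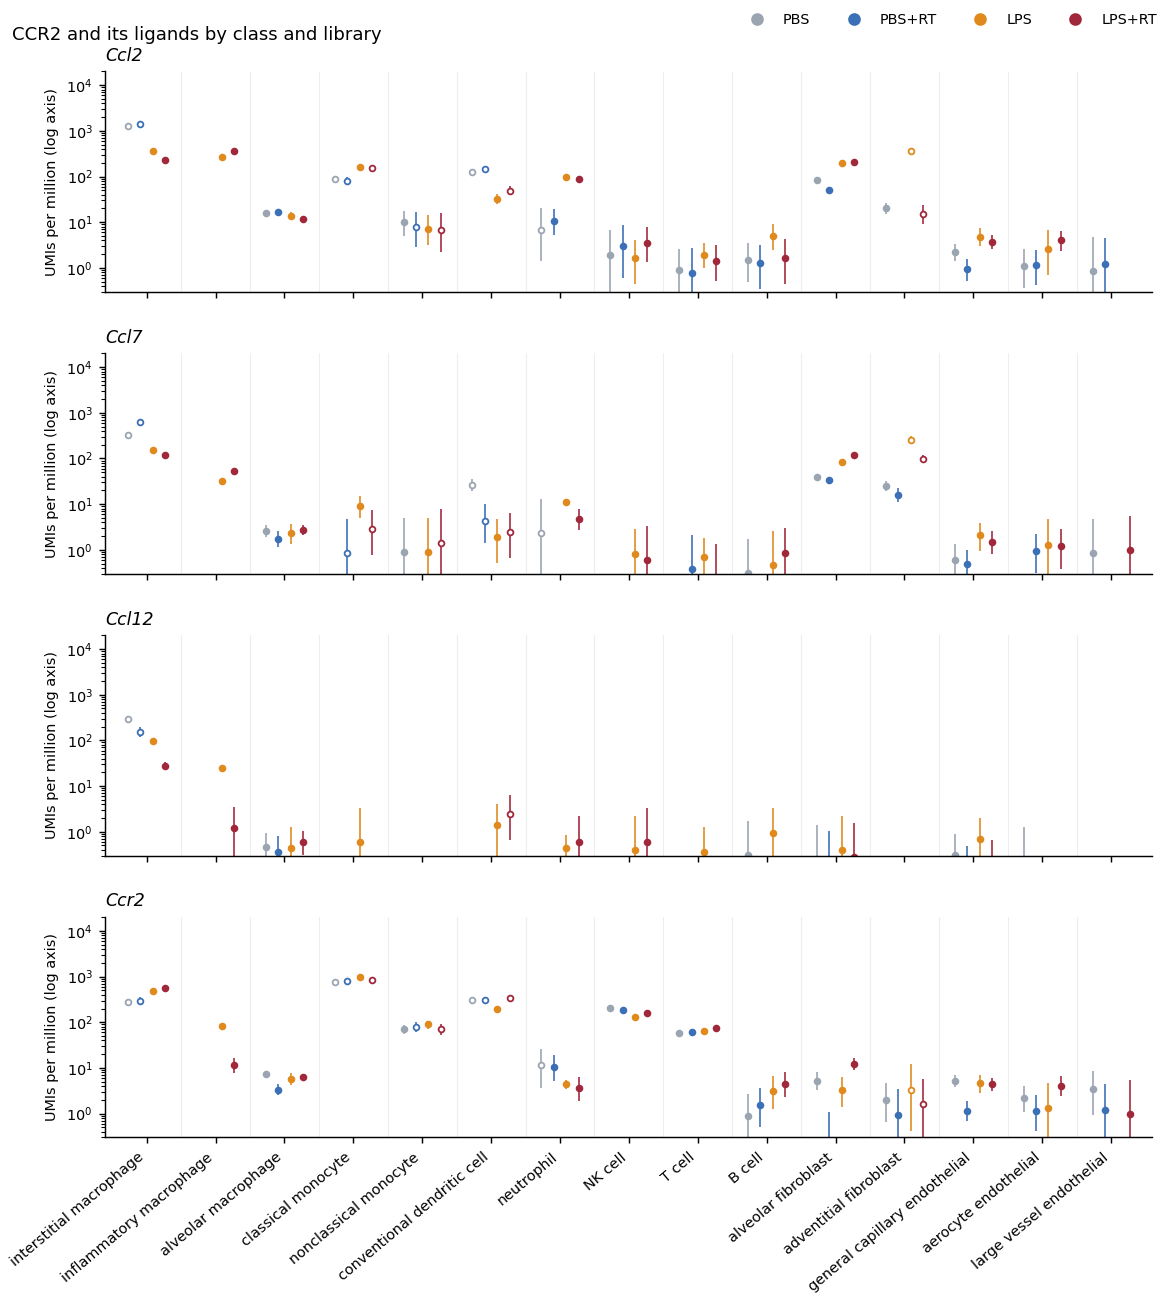
Levels of Ccl2, Ccl7, Ccl12 and Ccr2 (CPM, log axis) in 15 classes, with 1 point per library and exact 95% Poisson intervals. Filled points are from at least 100 cells, open points from 25 to 99 cells, and points with 0 UMIs or fewer than 25 cells, or below the start of the axis, are not drawn; Ccl2 lies highest in interstitial macrophages of PBS and PBS+RT (1293 and 1432 CPM) and Ccr2 in classical monocytes of all 4 libraries.

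Ccr2, the receptor, was highest in classical monocytes in every library, at 774, 824, 965 and 834 CPM. From 96.9% to 98.0% of these cells held a Ccr2 UMI in the 4 libraries, and 65.2 to 76.6% did after thinning to 2000 UMIs, against 0.557 to 2.20% of B cells before it. The receptor therefore differed little between the libraries in these cells. Interstitial macrophages stood at 280, 299, 491 and 572 CPM, and 29.2%, 31.0%, 53.7% and 57.5% of them held a UMI after thinning, higher in both LPS libraries. With 205 and 219 cells there against 48 and 29, they held 37.5% and 47.0% of the Ccr2 UMIs of LPS and LPS+RT and 8.34% of those of PBS, where classical monocytes held 42.5%. The higher Ccr2 lay beside the presence of Ly6c2 and Vcan and the lower F13a1 given above.

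Conventional dendritic cells stood at 302, 307, 193 and 336 CPM. They ranked above interstitial macrophages in PBS and PBS+RT, where the intervals of these classes overlapped, and below them in LPS and LPS+RT. NK cells followed at 210, 185, 128 and 158 CPM, and T cells at 58.1 to 75.9 CPM. Nonclassical monocytes, which leave CCR2 behind as they mature, stood at 70.4 to 89.9 CPM. Inflammatory macrophages had 85.1 CPM in LPS and 11.6 in LPS+RT, 0.136-fold (0.0909 to 0.197), but the ratio was 1.19 when each cell was named by its own marker score in place of its cluster. In interstitial macrophages of LPS, 156 of 173 cells with Ccr2 (90.2%) also had Cx3cr1, against 24 of 32 (75.0%) without, at medians of 23697 and 25688 UMIs. NK cells of LPS showed the opposite order, 29 of 123 (23.6%) against 90 of 211 (42.7%), although the cells with Ccr2 were the deeper ones (7724 against 6497 UMIs).

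Ccl3 and Ccl4 had their largest totals in neutrophils of the LPS libraries. Ccl3 stood in neutrophils at 507 (76 cells), 96.1, 7766 and 4443 CPM. LPS was 15.3-fold (13.4 to 17.5) above PBS and LPS+RT 46.2-fold (37.6 to 57.5) above PBS+RT, while LPS+RT was 0.572-fold (0.563 to 0.582) the level of LPS. Of the genes measured in neutrophils, 22.2% passed 2-fold upwards in the first of these comparisons. Neutrophils thereby held 85.1% of the Ccl3 UMIs of LPS and 67.4% of those of LPS+RT. Ccl4 stood at 299, 267, 4265 and 2348 CPM, 14.2-fold (12.0 to 17.0) higher in LPS than in PBS and 0.551-fold in LPS+RT against LPS, and 1 cell held 39.7% of its UMIs in PBS and 41.6% in PBS+RT. Beside this, the 9 neutrophil markers summed to 145302, 134586, 35167 and 42104 CPM, with none at 0.

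Both genes differed among the 5 neutrophil clusters, and the clusters were filled unequally. Cluster 27 held 47 of the 76 neutrophils of PBS and 90 of the 115 of PBS+RT, but 203 of 3559 in LPS and 96 of 899 in LPS+RT. Within cluster 27 Ccl3 stood at 11.2, 106, 738 and 224 CPM and Ccl4 at 180, 274, 499 and 276 CPM, so LPS was above PBS for both genes, while Ccl4 was alike in PBS+RT and LPS+RT. The ratios of the whole class thus compare unlike mixtures of clusters, and the 507 CPM of Ccl3 in PBS lay outside cluster 27. Cluster 9 held Ccl3 at 12000 CPM in LPS and 7580 in LPS+RT, and cluster 3 at 7207 and 2817. Cluster 19, with few UMIs per cell, stood at 5563 and 1704 in LPS and LPS+RT. In each of these clusters, and in cluster 27, LPS+RT was the lower of the LPS libraries. Cluster 22 was described in LPS alone. Of the 3128 LPS neutrophils with Ccl3, 2448 (78.3%) also held Ccl4, against 108 of 431 (25.1%) without Ccl3, at medians of 5177.5 and 2453 UMIs.

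In the LPS libraries macrophages and lymphocytes held lower levels than neutrophils. Without LPS this did not hold throughout. Ccl4 was higher in NK cells than in neutrophils of PBS (718 against 299 CPM) and of PBS+RT, where the intervals overlapped. Ccl3 was higher in interstitial macrophages than in neutrophils of PBS+RT (396 against 96.1 CPM). Inflammatory macrophages had Ccl3 at 727 CPM in LPS and 595 in LPS+RT, and Ccl4 at 520 and 180, so only Ccl4 passed 2-fold (0.347-fold, 0.315 to 0.382). Interstitial macrophages held Ccl3 at 155, 396, 275 and 248 CPM and Ccl4 at 284, 165, 332 and 241, where 1 cell held 39% of the PBS+RT UMIs of Ccl3 and 69% of those of Ccl4. Alveolar macrophages, the airspace residents, held Ccl3 at 54.3, 52.1, 247 and 89.5 CPM. In LPS they were 4.55-fold (4.19 to 4.95) above PBS, and in LPS+RT 0.362-fold (0.339 to 0.386) of LPS. These cells fell into 2 clusters, of which cluster 13 held most in the LPS libraries and cluster 8 most in the others; within cluster 13 alone Ccl3 was at 55.9, 86.7, 252 and 86.3 CPM.

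NK cells were the leading lymphocyte source of Ccl4, at 718, 320, 1088 and 986 CPM. The LPS to PBS ratio stayed under 2-fold, the PBS+RT level was 0.445-fold (0.390 to 0.508) that of PBS, and LPS+RT was 3.08-fold (2.73 to 3.48) above PBS+RT. Their Ccl3 stood at 126, 74.8, 370 and 238 CPM, 2.94-fold (2.45 to 3.55) higher in LPS than in PBS. T cells were near 0 for Ccl3 without LPS, with Ccl3 at 2.09, 1.13, 114 and 63.3 CPM and Ccl4 at 20.0, 3.02, 129 and 30.9. Their Ccl4 was 0.240-fold (0.198 to 0.290) in LPS+RT against LPS. Conventional dendritic cells held Ccl4 at 278, 47.8, 360 and 266 CPM, and classical monocytes held Ccl3 at 83.3, 74.2, 258 and 90.3 CPM, where 1 cell held 48% of the UMIs of PBS and 38% of those of LPS.

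**Figure D2:**
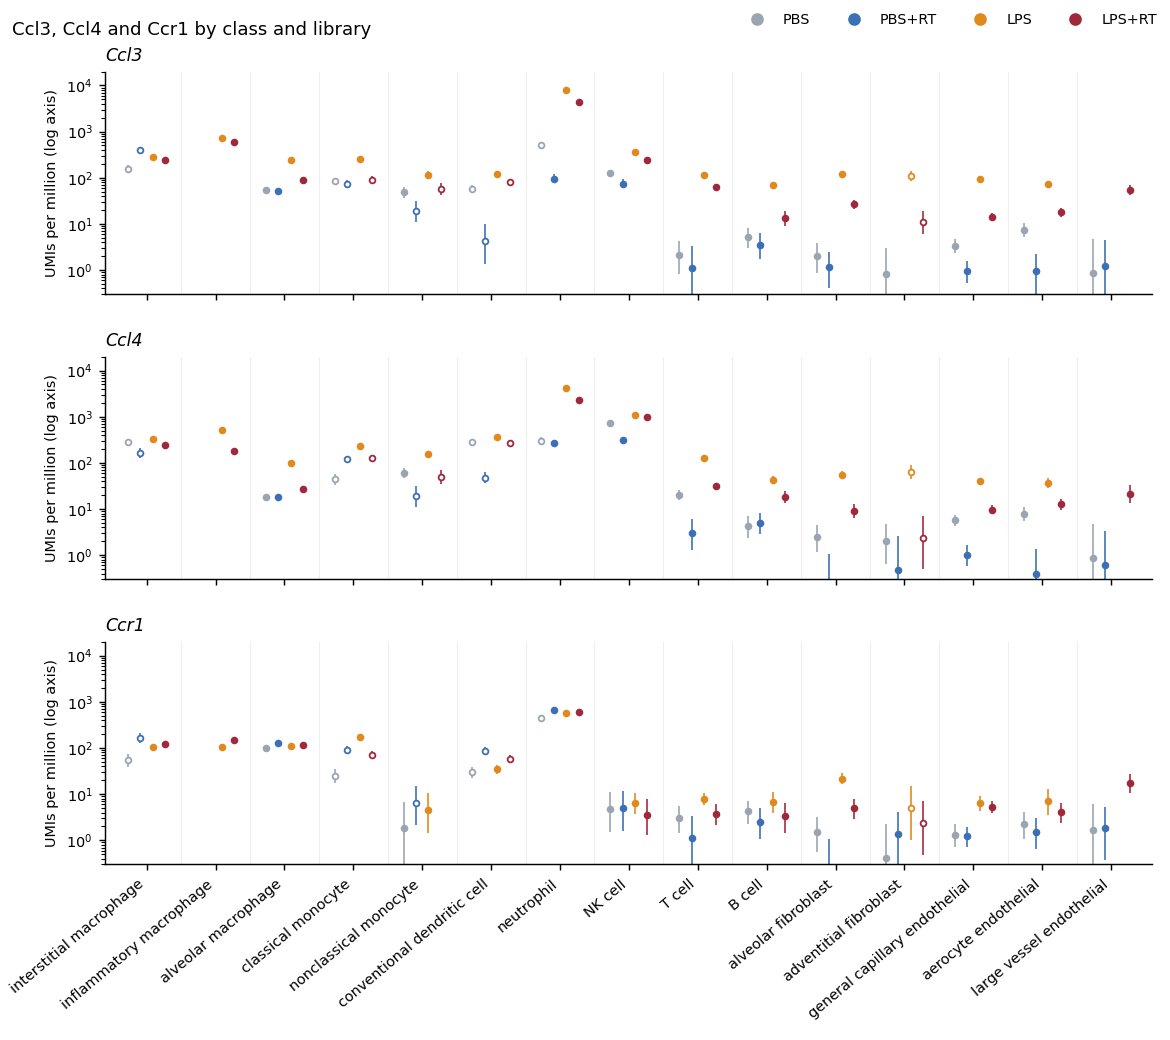
Levels of Ccl3, Ccl4 and Ccr1 (CPM, log axis) by class and library, with exact 95% Poisson intervals; symbols as in the plot of Ccr2 and its ligands. The neutrophil points of LPS and LPS+RT (7766 and 4443 CPM for Ccl3) stand above every other class drawn, and Ccr1 is highest in neutrophils of all 4 libraries.

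S100a8 and S100a9, both neutrophil markers, were counted in every class compared with neutrophils. S100a8 reached 0.411 to 3.95% of its neutrophil level in the 14 other classes of LPS with at least 100 cells. In the 13 such classes of LPS+RT it reached 0.122 to 1.60%. The 1.60% was in inflammatory macrophages, where S100a9 stood at 0.400% and Retnlg, another neutrophil marker, at 0.0581%. In alveolar macrophages of LPS+RT, S100a8, S100a9 and Retnlg stood at 0.520%, 0.107% and 0.113%. How much of the S100a8 in a class was neutrophil RNA was not tested. Ccl3 exceeded the larger of the S100a8 and S100a9 shares in 9 of the 14 classes in LPS, and Ccl4 in 8. B cells, aerocytes, alveolar fibroblasts, general capillary cells and platelets lay at or below it for both genes, and alveolar type 1 cells for Ccl4. In LPS+RT each gene was above it in 12 of 13 classes, all but alveolar type 1 cells. In NK cells of LPS, Ccl3 was 4.76% of the neutrophil level while S100a8 was 0.411%, whereas in general capillary cells Ccl3 was 1.21% and S100a8 1.80%. Some classes passed the S100 share only narrowly. In LPS+RT, Ccl3 was 0.299% against 0.277% for S100a8 in B cells (32 UMIs of Ccl3) and 0.322% against 0.287% in general capillary cells. Levels at or below the S100 share were left out in an alternative count, and a level above it was not taken as proof of expression by the class. The cutoff has no margin for counting error, and the source of the RNA was not tested.

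**Figure D3:**
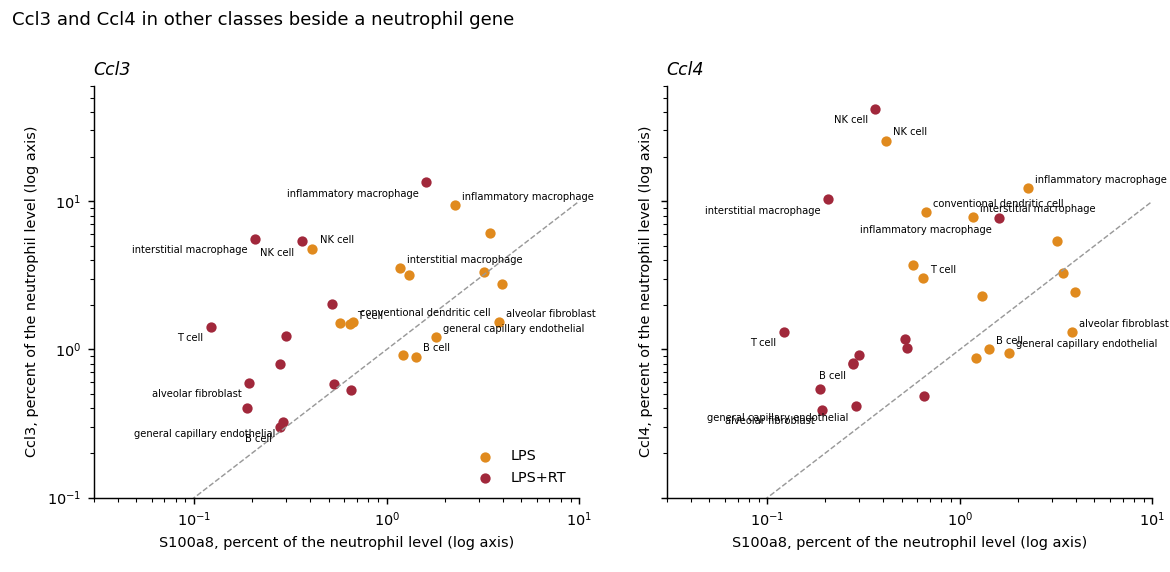
Ccl3 (left) and Ccl4 (right) in each class with at least 100 cells, as percent of the neutrophil level, against S100a8 as percent of its neutrophil level (both log axes), 1 point per class for LPS and LPS+RT. The dashed line marks equal shares; NK cells lie well above it (4.76% against 0.411% for Ccl3 in LPS) and general capillary cells of LPS lie below it for Ccl3.

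Ccr1, a receptor for CCL3, was highest in neutrophils, at 446, 679, 583 and 600 CPM. After thinning, 65.6%, 76.4%, 59.6% and 59.3% of them held a Ccr1 UMI, and 58.3 to 81.7% did before it. The receptor thus stayed within 2-fold in neutrophils, unlike the ligands in the same cells. Alveolar macrophages were also even, at 99.0, 129, 109 and 114 CPM, and held 76.5% of the Ccr1 UMIs of PBS, where neutrophils were few. Inflammatory macrophages stood at 104 CPM in LPS and 147 in LPS+RT. Classical monocytes stood at 25.2, 90.2, 172 and 70.2 CPM, and the irradiated libraries lay between the others. PBS+RT was 3.58-fold (2.43 to 5.38) above PBS and LPS+RT 0.407-fold (0.320 to 0.514) of LPS, from 36, 107, 285 and 98 UMIs. LPS was 6.85-fold (4.83 to 9.98) above PBS, where 6.95% of the genes measured in these monocytes passed 2-fold upwards. Interstitial macrophages held 54.2, 167, 103 and 124 CPM and conventional dendritic cells 29.9, 86.3, 34.9 and 58.7. Nonclassical monocytes held a Ccr1 UMI in 0 to 3.23% of their cells, near the 1.30 to 3.24% of B cells.

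Cx3cl1 had its highest level in capillary aerocytes, the endothelial cells specialised for gas exchange. They held it at 135, 87.7, 93.6 and 136 CPM, and no ratio passed 2-fold. General capillary cells followed at 27.5, 28.9, 20.2 and 26.2 CPM and large vessel endothelial cells at 34.9, 28.9 and 41.1 CPM in PBS, PBS+RT and LPS+RT. Aerocytes held 32.7 to 47.8% of the Cx3cl1 UMIs of a library. General capillary cells held 19.3%, 30.9%, 20.0% and 19.2% of them, and alveolar macrophages 22.8%, 22.7%, 9.32% and 18.3%. Among leukocytes, conventional dendritic cells stood at 13.7 to 35.0 CPM and alveolar macrophages at 20.8, 19.0, 5.93 and 9.93 CPM. In alveolar macrophages LPS was 0.285-fold (0.201 to 0.395) of PBS, from 41 and 318 UMIs, and both LPS libraries lay below both PBS libraries. Within cluster 13, which held most of the class in the LPS libraries but not in the others, Cx3cl1 stood at 18.2, 16.9, 5.79 and 8.73 CPM.

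Cx3cr1 was highest in nonclassical monocytes of PBS, PBS+RT and LPS+RT, the patrolling cells of the vessels. They held it at 408, 262, 224 and 243 CPM, with PBS above the other 3 libraries but by less than 2-fold. Interstitial macrophages stood at 368, 231, 298 and 229 CPM, so the intervals of these classes overlapped in PBS, PBS+RT and LPS+RT, and in LPS the interstitial macrophages were higher. Classical monocytes stood lower in the LPS libraries, at 139 and 98.2 CPM against 202 and 171. NK cells held 57.7, 61.0, 107 and 49.5 CPM, and LPS+RT was 0.462-fold (0.357 to 0.594) of LPS. Neutrophils were even for Cx3cr1, at 41.1, 28.8, 33.1 and 36.7 CPM. Alveolar macrophages stood at 3.07, 3.34, 15.6 and 4.53 CPM, and LPS was 5.08-fold above PBS, where 1 cell held 36.1% of the LPS UMIs.

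Cx3cr1 was also counted outside the myeloid cells. Alveolar fibroblasts stood at 39.6, 71.3, 198 and 223 CPM, 5.00-fold (4.18 to 6.02) higher in LPS than in PBS and 3.12-fold (2.76 to 3.54) higher in LPS+RT than in PBS+RT. General capillary cells stood at 73.1, 83.1, 78.9 and 159 CPM and aerocytes at 49.3, 46.0, 39.7 and 81.2, both about 2-fold higher in LPS+RT than in LPS (2.02 and 2.05). General capillary clusters were filled unequally and differed in Cx3cr1, with the highest level, 222 CPM over all libraries, in cluster 21, so the ratio compares unlike mixtures. Within clusters Cx3cr1 stood in LPS and LPS+RT at 171 and 231 CPM (cluster 2), 76.6 and 171 (cluster 5), 87.9 and 362 (cluster 21), 18 and 24.8 (cluster 11) and 6.35 and 7.98 (cluster 0). In the largest aerocyte cluster, cluster 10, it stood at 43.6 and 89.1 CPM. Large vessel endothelial cells stood at 92.0, 94.5 and 125 CPM of Cx3cr1 in PBS, PBS+RT and LPS+RT. Csf1r, the growth factor receptor of macrophages, was at no more than 22.0 CPM in the 18 endothelial, fibroblast and pericyte clusters. Over these clusters Cx3cr1 had a Spearman correlation of 0.74 with Malat1, a nuclear RNA, and of 0.73 with Csrnp1, which its span contains, as a description over clusters that share libraries. In alveolar fibroblasts Malat1 stood at 23506, 32327, 28220 and 29512 CPM and Csrnp1 at 220, 128, 241 and 291. The part of reads from overlapping genes or nuclear RNA in these Cx3cr1 values was not tested, and they are given as counted.

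**Figure D4:**
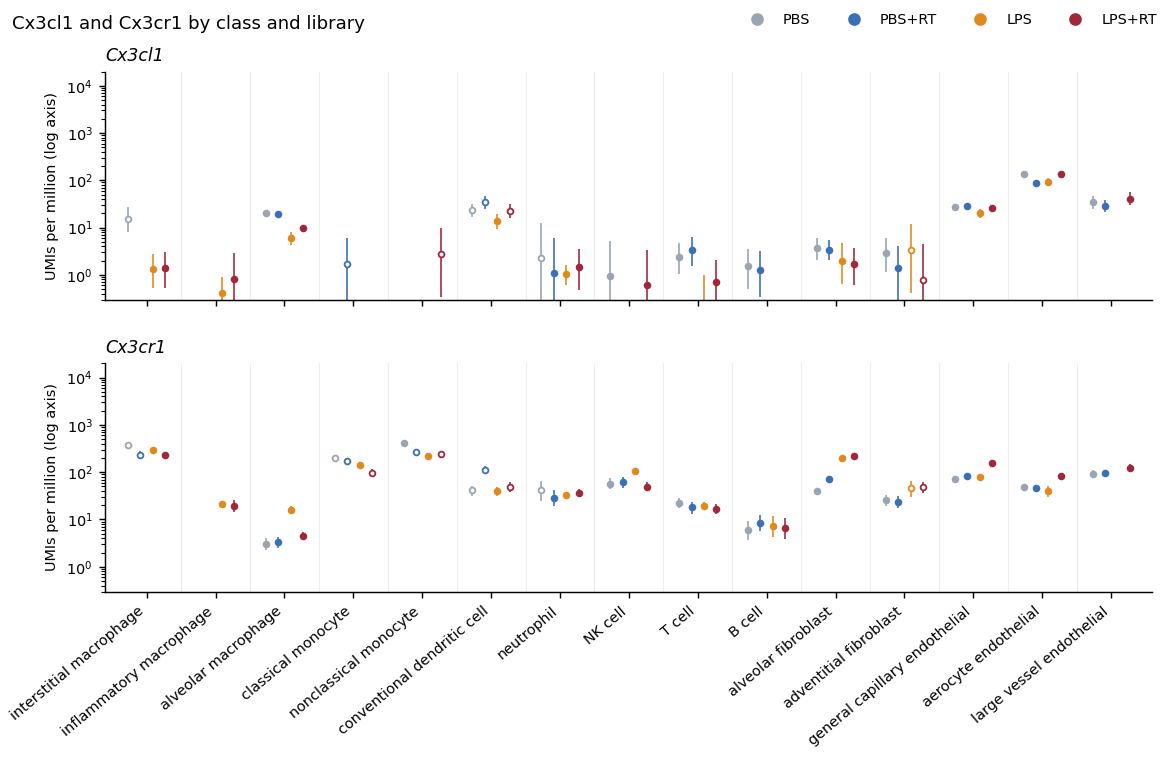
Levels of Cx3cl1 and Cx3cr1 (CPM, log axis) by class and library, with exact 95% Poisson intervals; symbols as in the plot of Ccr2 and its ligands. Cx3cl1 is highest in aerocytes (87.7 to 136 CPM), and Cx3cr1 is high in monocytes and interstitial macrophages and, in LPS and LPS+RT, in alveolar fibroblasts (198 and 223 CPM).

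**Figure D5:**
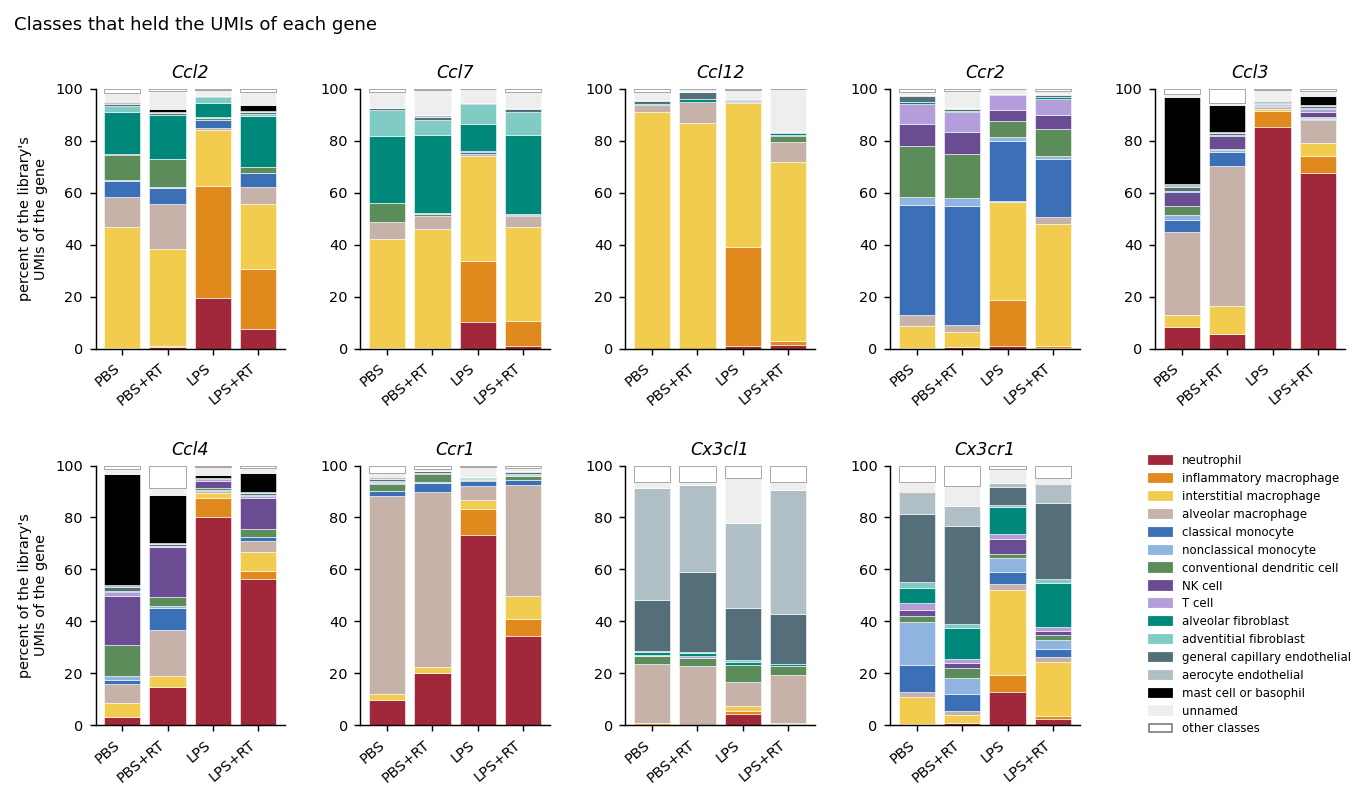
Percent of each library's UMIs of a gene that each class held, as stacked bars from 0 to 100 for each of the 9 genes. Neutrophils fill 85.1% of the Ccl3 bar of LPS, interstitial macrophages 91.0% of the Ccl12 bar of PBS, and classical monocytes 42.5% of the Ccr2 bar of PBS.

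The members were then counted as pairs of gene and class, measured where the higher library had at least 10 CPM and 10 UMIs, and called where the ratio passed 2-fold. LPS against PBS, the inflamed lung without irradiation, had 41 measured pairs in 10 classes. Of these, 26 were higher in LPS and 1 was lower, while over all genes 5% of 84235 pairs were higher and 6.18% lower. The median log2 ratio was 2.19 over the members' pairs and -0.02 over all pairs. Ccl3 was called higher in 10 of 10 classes (2.42- to 83.0-fold) and Ccl4 in 9 of 10, so these ligands made up most of the count. Ccl2 was higher in 2 of 4 classes, Ccl7 in 1 of 1, Ccr1 in 2 of 3 and Cx3cr1 in 2 of 7, Ccr2 in 0 of 3, and Cx3cl1 was lower in 1 of 3. Leaving out levels at or below the S100 share left 14 of 29 pairs higher, and each cell named by its own score gave 54 pairs higher and 9 lower. Naming by own score also changed the number of measured pairs, and the share over all genes was not counted under it.

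LPS+RT against PBS+RT, the same question in irradiated lungs, had 45 pairs in 11 classes. Of these 22 were higher and 4 lower, against a background of 4.62% and 6.22% of pairs, with a median log2 ratio of 0.94 over the members and -0.12 over all pairs. Ccl3 was higher in 9 of 11 classes and Ccl4 in 6 of 8. This comparison has its own control library. Without the cell with most UMIs of the gene, 1 pair in place of 4 was lower.

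LPS+RT against LPS, irradiated against unirradiated inflamed lung, had more pairs lower than higher. Of 59 pairs in 12 classes, 3 were higher and 24 lower, against a background of 3.29% and 3.78%, and the median log2 ratio was -0.63 against -0.04 over all pairs. Ccl4 was lower in 9 of 12 classes, Ccl3 in 7 of 12 and Ccl12 in 2 of 2. Ccl2, Ccl7 and Ccr1 were each lower in 1 class, of 6, 4 and 6. Ccr2 was higher in 1 and lower in 1 of 5, Cx3cr1 higher in 2 and lower in 2 of 9, and Cx3cl1 was called in 0 of 3. Leaving out levels at or below the S100 share left 12 of 47 pairs lower. Neutrophils, the class to which that share is scaled, were 3559 cells in LPS and 899 in LPS+RT.

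PBS+RT against PBS, irradiation without LPS, had 30 pairs in 11 classes. Of these, 3 (10%) were higher and 4 (13.3%) lower, against a background of 5.22% and 3.71% of pairs. The median log2 ratio was -0.07 against 0.06 over all pairs. The pairs called lower were Ccl4 in NK cells and T cells, Ccl2 in adventitial fibroblasts and Ccr2 in pericytes (1 against 14 UMIs). Of the Ccl2 UMIs of PBS behind that call 86% came from 1 cell, and 2 pairs were lower without the cell with most UMIs. Those called higher were Ccl3 and Ccl4 in alveolar type 1 cells and Ccr1 in pericytes. Each of these 3 rests on 1 cell, and without the cell with most UMIs 0 pairs were higher. PBS is also the control of the first comparison, and each library enters 2 comparisons, so the 4 sets of counts are not independent.

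The 5 further lists hold genes that act around the family. Of 9 other CC ligands (Ccl5, Ccl6, Ccl8, Ccl9, Ccl11, Ccl17, Ccl20, Ccl22 and Ccl24), 8 of 27 measured pairs were higher and 3 lower in LPS against PBS, and 24 of 29 were higher and 0 lower in LPS+RT against PBS+RT, with a median log2 ratio of 2.03. In LPS+RT against LPS 13 of 39 were higher and 2 lower, where 3 of the members' 59 pairs were higher and 24 lower. Ccl6, a CC chemokine of myeloid cells, stood at 365 against 137 CPM in interstitial macrophages and 2184 against 873 in inflammatory macrophages of LPS+RT and LPS. Ccl9, another CCR1 ligand, stood in alveolar macrophages at 46.9 CPM in PBS and 659 in LPS (14.0-fold) and in neutrophils at 11.4 and 164 CPM (14.3-fold). The neutrophil class of PBS is small (76 cells), and its mixture of clusters is unlike that of LPS. In the small interstitial macrophage class of PBS, Ccl8 stood at 372 CPM and Ccl24 at 116, against 5.49 and 5.87 in LPS, while Ccl5 went from 10.3 to 198. In PBS+RT against PBS 2 of 27 pairs were higher and 11 lower.

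Of 7 other CC receptors, 8 of 21 pairs were higher and 3 lower in LPS against PBS, and 2 of 25 higher and 5 lower in LPS+RT against LPS. Ccrl2, an atypical receptor of activated leukocytes, stood in neutrophils at 530 CPM in the small PBS class and 2460 in LPS, over unlike mixtures of clusters. In LPS+RT against PBS+RT the receptors counted 5 of 18 higher and 1 lower, and in PBS+RT against PBS 0 of 19 and 4.

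Chemokine scavengers and shedding enzymes (Ackr1 to Ackr4, Adam10, Adam17 and Dpp4) had 1 of 38 pairs higher and 4 lower in LPS against PBS, 3 of 43 and 1 in LPS+RT against PBS+RT, 4 of 40 and 2 in LPS+RT against LPS, and 3 of 46 and 4 in PBS+RT against PBS. Over all genes, the shares higher and lower were 5% and 6.18%, 4.62% and 6.22%, 3.29% and 3.78%, and 5.22% and 3.71% in the same order of comparisons. These shares stand beside the counts of all 5 lists, and no difference from them was tested. The 8 genes of receptor signalling, such as Gnai2 and Rgs1, had 7 of 66 pairs higher and 3 lower, 15 of 75 and 0, 4 of 88 and 0, and 3 of 68 and 6 in the same order. The 7 genes of monocyte growth and egress had 7 of 39 and 6, 9 of 41 and 2, 4 of 45 and 5, and 1 of 39 and 6. Among them, Csf1, the macrophage growth factor, stood in alveolar fibroblasts at 45.9 CPM in PBS and 124 in LPS. Cxcr4, the bone marrow retention receptor, stood in neutrophils at 352 CPM in the small PBS class, 111 in LPS and 351 in LPS+RT. These neutrophil values again compare unlike mixtures of clusters.

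The genes most like each member were found over 56 sums of a class in a library, each from at least 100 cells, among 8901 genes, by Pearson correlation of log2(CPM + 10). These sums share libraries and cell types, so the values are a description. Ccl2 and Ccl7 were closest to each other (0.87), as were Ccl3 and Ccl4 (0.92). Next to Ccl2 came Slc35b2 (0.78) and Lacc1 (0.77), and next to Ccl7 came Kcnk13 (0.85) and Serpinb8 (0.84). Ccl12 lay nearest to C1qc, C1qa and Ms4a7 (0.91, 0.91 and 0.89), which are markers of interstitial macrophages. Close to Ccr2 came Gpr65 (0.86) and S100a4 (0.85). Beside Ccl3 came Il1rn (0.87) and Cxcl2 (0.86), and beside Ccl4 came Aoah (0.91) and Itgam (0.88). Ccr1 lay nearest to Cd33, Osm and Clec5a (0.98, 0.95 and 0.94) and Cx3cl1 to Dysf, Edil3 and Prrt4 (0.92, 0.91 and 0.91). Cx3cr1 had the weakest likeness, to Acer3, Lpar6 and Mef2a (0.79, 0.71 and 0.71).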

How the data were processed

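The authors deposited, for each barcode, unnormalised UMI counts of genes, and the file headers name Cell Ranger 7.0.1. The submitters' processing notes list mm10, Seurat 4.3.0, R 4.2.2 and Cell Ranger 7, and whether intron reads were counted is not given in the sources used here. The libraries held 10083, 6708, 9572 and 10996 barcodes (PBS, PBS+RT, LPS, LPS+RT). Barcode sequences were not used here, so shared barcodes were not counted.

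Barcodes needed 500 or more UMIs and 200 or more genes, with mitochondrial UMIs at 10% or less, and doublets (1.48 to 2.84% of a library) removed with a reimplementation of Scrublet. Cells were clustered together without batch correction (2000 variable genes, 30 components, 15 neighbours, Leiden resolution 1.5) into 52 clusters. The members and the pathway genes took no part in clustering or naming. Clusters took a name from 3 or more markers, each found in 10% or more of their cells and 2-fold or more above other clusters. In all, 9 clusters stayed unnamed, 5 of them for markers of another lineage and the others for few UMIs or leading genes of another class, and these thresholds were set after the clusters had been seen. The names are not the submitters' annotation. UMIs were summed per class and library (CPM), and a gene at 0 took a floor of 3 counts per class and library for a ratio.

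The members, gene lists and classes were chosen with earlier results of these data known. The rule was to name each member in every class where it reaches 10 CPM and 10 UMIs in a library. The text departs from it: it gives the classes with the highest levels or largest shares, and some others that reach this level are left out. Of the other lists, the 4 genes with the largest log2 ratio after adding 10 CPM in a class may be named, and for each member the 3 most alike genes, except 1 gene that is not reported here. The alternatives were other filters, doublet handling, resolutions (1.0 and 2.5), naming by single cells, means of cells, thinning and no CPM minimum, and 5 were added after the data had been seen. The counting of ratios was tried on simulated Poisson counts with known changes larger than 2-fold and a lower floor. These held no UMIs clumped in single cells, so the trial does not cover that source of error. The software was matplotlib 3.10.9, leidenalg 0.10.2, igraph 0.11.9, scikit-image 0.26.0, scikit-learn 1.9.0, pandas 2.3.3, SciPy 1.17.1 and NumPy 2.4.6 under Python 3.11.15. Gene positions are from GENCODE M21.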

Additional observations from a re-analysis of the deposited data

Results flagged for a closer look

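In 4 pairs of gene and class the ratio of the irradiated to the unirradiated library lay above 2-fold on one side and below its inverse on the other, and the difference was not tested. In classical monocytes Ccr1 was 3.58-fold higher in PBS+RT than in PBS and 0.407-fold in LPS+RT against LPS. In alveolar type 1 cells Ccl3 had ratios of 5.91 and 0.0504 and Ccl4 of 9.49 and 0.0816. A single cell held 97% of the Ccl3 and 98% of the Ccl4 UMIs of the PBS+RT class. The alveolar type 1 levels of both genes in LPS+RT lay at or below the S100 share. In pericytes Ccr1 had ratios of 12.7 and 0.307, and 1 cell held all 15 of its UMIs in PBS+RT.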

How the results depend on the processing

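No paired analysis was possible because each group has 1 library. Of 87 called pairs, 52 were called the same way under every setting run for them and 35 were not. This tally left out the removal of levels by the neutrophil marker share and of the neutrophil cluster with few UMIs. The missing CPM minimum and classes from 25 cells were left out too. A pair without a value under a setting was not judged there. Thinning to 2000 UMIs left out the cells with fewer UMIs. With it, 51 pairs stayed the same, 14 moved and 1 reversed, and the rest were not judged. The 52 pairs were thus not checked under every alternative. The number of measured pairs also differed between settings, and the pooled share over all genes was counted under the main settings only. The counts that follow are therefore not shares. In LPS against PBS, lowering the limit to 25 cells added 45 measured pairs to the 41. The higher count (26) there was 54 with each cell named by its own score and 17 with cells thinned to 2000 UMIs. It was 14 without levels at or below the S100 share and 46 with classes from 25 cells. The lower count (1) was 9 by own score, 4 with doublets kept, 2 thinned and 9 from 25 cells. In LPS+RT against LPS the higher count (3) was 13 by own score, 1 with the highest doublet scores removed and 5 from 25 cells, and the lower count (24) was 52, 15 thinned, 12 without S100-level values and 40 from 25 cells. In LPS+RT against PBS+RT the higher count (22) was 36 by own score, 12 thinned, 34 with no CPM minimum and 34 from 25 cells. Its lower count (4) was 0 with 1000 UMIs per barcode, 2 with means of cells, thinning or the highest doublet scores removed, 1 without the cell with most UMIs and 9 from 25 cells. In PBS+RT against PBS the higher count (3) was 5 at resolution 1.0 and with the highest doublet scores removed, 6 by own score, 0 without the cell with most UMIs and 10 from 25 cells. Its lower count (4) was 10 by own score, 9 with means of cells, 14 with no CPM minimum, 2 without the top cell and 13 from 25 cells. Ratios turned in alveolar type 1 cells for Ccl3 in PBS+RT against PBS (0.245 by own score, 0.248 without the top cell), Ccl4 in the same comparison (0.0725 and 0.248) and in LPS+RT against PBS+RT (77.3 and 9.45), and Ccr1 in the latter (0.931 thinned, 0.919 with the highest doublet scores removed). They also turned for Ccr1 in pericytes in PBS+RT against PBS (0.861 without the top cell), Ccr2 in alveolar fibroblasts in LPS+RT against LPS (0.236 with means of cells), Ccr2 in inflammatory macrophages (1.19 by own score), Ccr2 in neutrophils in LPS+RT against PBS+RT (2.17 with means of cells) and Cx3cr1 in pericytes in that comparison (1.77 by own score). The causes were not tested.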

Other observations

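The smallest named class held some of the highest levels. Mast cells or basophils, with 11, 3, 14 and 8 cells in PBS, PBS+RT, LPS and LPS+RT, held Ccl3 at 15060, 5229, 4285 and 11714 CPM (94.6% of the PBS+RT UMIs from 1 cell) and Ccl4 at 29180, 9953, 6664 and 15589 CPM. The 11 cells of PBS held 33.6% of the Ccl3 and 42.6% of the Ccl4 UMIs of that library, more than its NK cells (19.0% for Ccl4). In LPS the share was 0.332% and 0.885%, beside the neutrophils. In LPS+RT the 8 cells also held 88 UMIs of Ccl2, 2.25% of that library's total. Mast cells or basophils enter none of the counts, since every library has fewer than 25 of them.

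Among clusters left unnamed for markers of several lineages, cluster 43 (97 cells in LPS) held Ccl3 at 2619 CPM and Ccl4 at 1274 CPM, and cluster 49 (39 cells in LPS) held Ccl3 at 2846 CPM and Ccr2 at 83.5 CPM.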
